A study of Mus musculus with 2 samples.

Results

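The genes that type I interferon induces, with the receptor and the transcription factors that drive them, were described in RNA of regulatory T cells (Tregs) sorted from mouse kidney. The set had 42 members, taken from a list of symbols that covers the receptor, the ISGF3 factors, sensors of foreign nucleic acid and antiviral effectors. A probe belonged to a member when its RefSeq accession carried the member's symbol. By this rule 61 probes represented 40 members, out of 32994 probes and 22911 genes that could be named on the array. No probe was matched to Mx1 or Mx2.

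Type I interferons, the alpha and beta proteins, bind a receptor made of Ifnar1 and Ifnar2. The receptor's kinases Jak1 and Tyk2 phosphorylate STAT proteins, among them Stat2, which join Irf9 to form the factor ISGF3. ISGF3 binds the interferon-stimulated response element (ISRE) in the promoters of its target genes, whose products sense, trap or degrade viral nucleic acid. In T cells the same pathway also acts without infection, because low constant amounts of interferon beta keep part of the response switched on.

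The Tregs were CD45+CD3e+CD4+FoxP3-hCD2+ cells, where hCD2 is a reporter carried by cells that express Foxp3. The cells were taken from kidneys 28 days after cGN had been set off by antibody to the glomerular basement membrane (anti-GBM), which injures the filter of the kidney. One single-colour array was made for anti-GBM lot M and 1 for lot I, and the labels say that severity varied with the lot. By their titles the arrays are repeats of each other. No uninjured kidney was analysed, and hCD2+ cells were the only T cells analysed. No source used here gives the strain, sex, age or number of mice behind an array.

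The sources contradict each other on the lots. The scanner output records array 2 under lot M and array 1 under lot I, but in the deposited value table the numbers of array 2 stand under lot I and those of array 1 under lot M. The arrays are therefore named by number, and each difference is array 2 minus array 1. With 1 array for each lot there is no replicate and no test, so each difference describes these arrays and not the lots. Probes well above background numbered 30558 on array 2 and 30576 on array 1, of 56605, and 13743 named genes had one on both. All 9 marker genes of T cells and Tregs were among these, with Foxp3 at 4.74 on array 2 and 4.92 on array 1 and Cd3e at 5.58 and 5.47.

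A level is the log2 of a probe's signal over the 75th percentile of its array, so a level of 0 is that percentile. A gene's value is the mean over its probes that were well above background on both arrays. The error after ± is the scanner software's own error for the spots concerned, called the spot error here, and it holds no variation between mice, sorts or hybridisations. A gene's spot error combines those of its probes as if they were independent, so it shrinks as probes are added.

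Promoter windows were searched for the ISRE, the element that ISGF3 is known to bind. RefSeq windows on the mouse assembly GRCm38.p6, from 250 bases before to 50 bases after a gene's start, were found for 32 of the 42 members. The letters GAAA, any 2 bases and GAAA again, searched on both strands with overlaps allowed, were taken as the ISRE. They occurred in the windows of 13 members (40.6% of 32), against 1079 of all 27025 genes in the table (3.99%). The window of Isg15 held 3 matches that overlap each other, and no other member had as many. The windows of Isg15 and Ifit1 are given because both are textbook targets of ISGF3. That of Oas1a is given because it carries 2 overlapping matches, which begin 20 bases before the start. Ddx58, Eif2ak2, Ifitm3 and Trim30a have a match closer to the start. Capitals mark the matches, each sequence runs 5′ to 3′ on the strand of the gene, and the strand follows the coordinates.
Isg15, chr4:156200769-156201068, minus strand: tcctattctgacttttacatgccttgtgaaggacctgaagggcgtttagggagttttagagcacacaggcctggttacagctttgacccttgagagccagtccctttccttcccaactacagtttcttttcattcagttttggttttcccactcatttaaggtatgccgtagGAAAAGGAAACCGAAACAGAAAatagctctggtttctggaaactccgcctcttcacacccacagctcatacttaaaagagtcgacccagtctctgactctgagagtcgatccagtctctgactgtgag
Ifit1, chr19:34640639-34640938, plus strand: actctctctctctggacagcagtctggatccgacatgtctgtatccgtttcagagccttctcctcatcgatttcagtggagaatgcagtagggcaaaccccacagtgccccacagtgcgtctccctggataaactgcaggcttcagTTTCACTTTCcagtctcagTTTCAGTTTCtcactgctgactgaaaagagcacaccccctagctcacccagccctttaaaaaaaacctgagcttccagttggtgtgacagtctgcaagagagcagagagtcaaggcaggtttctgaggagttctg
Oas1a, chr5:120907476-120907775, minus strand: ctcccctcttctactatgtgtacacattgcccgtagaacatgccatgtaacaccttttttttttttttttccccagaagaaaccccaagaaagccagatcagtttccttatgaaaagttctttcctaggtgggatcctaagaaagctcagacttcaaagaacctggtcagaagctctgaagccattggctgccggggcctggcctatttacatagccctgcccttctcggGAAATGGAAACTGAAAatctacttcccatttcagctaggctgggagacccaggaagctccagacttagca

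The matches of other members are given as short stretches with 5 bases on each side, to show how their middle letters and their distance from the start vary. The match began 222 bases before the start in Stat2 and 18 bases after it in Eif2ak2.
Stat2, chr10:128270271-128270290, plus strand: cctggTTTCAGTTTCctttc
Ifit3, chr19:34583368-34583387, plus strand: gtaagTTTCACTTTCctctt
Ifit3, chr19:34583402-34583421, plus strand: gtctgTTTCAGTTTCtactt
Ifih1, chr2:62646209-62646228, minus strand: gaatcGAAACAGAAAccgat
Ddx58, chr4:40239809-40239828, minus strand: ggcagTTTCGATTTCctatg
Oas3, chr5:120777720-120777739, minus strand: gaggaGAAAACGAAAgtgaa
Rsad2, chr12:26456558-26456577, minus strand: ccaacTTTCATTTTCagaaa
Eif2ak2, chr17:78882540-78882559, minus strand: gccggGAAAACGAAAcagaa
Bst2, chr8:71537582-71537607, minus strand: tccagGAAAATGAAACTGAAAggctg

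Ifitm3 and Trim30a were the remaining members with a match. The letters of a gamma-activated site, TTCNNNGAA, occurred in the windows of 10 members (31.25% of 32) and of 9.55% of all genes, and 2 of those 10 matches overlapped an ISRE match. These letters describe the windows and show no binding. The 13 members with an ISRE match had a median difference of -0.10, with 10 of 13 below 0. The 19 members whose windows hold no such letters had a median of -0.03, with 12 of 19 below 0, and the 8 measured members with no window in the table had a median of -0.006, with 4 of 8 below 0. Of all genes measured, 46.2% were below 0, and the differences between these sets were not tested.

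The response was measured on both arrays for every member with a probe. All 40 were well above background on array 2 and on array 1, where 60.0% of all genes with a named probe were measured on both. Of the 40, 30 lay above the 75th percentile on both arrays, as did 7639 of all 13743 genes measured on both. In bulk RNA, fewer cells of a type and less RNA per cell cannot be told apart. Brightness depends on the probe, so levels give no order of abundance between genes: the brighter probe of Irf7 lay at 5.51 on array 2 and 5.59 on array 1, and the dimmer one 0.69 and 0.72.

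**Figure D1:**
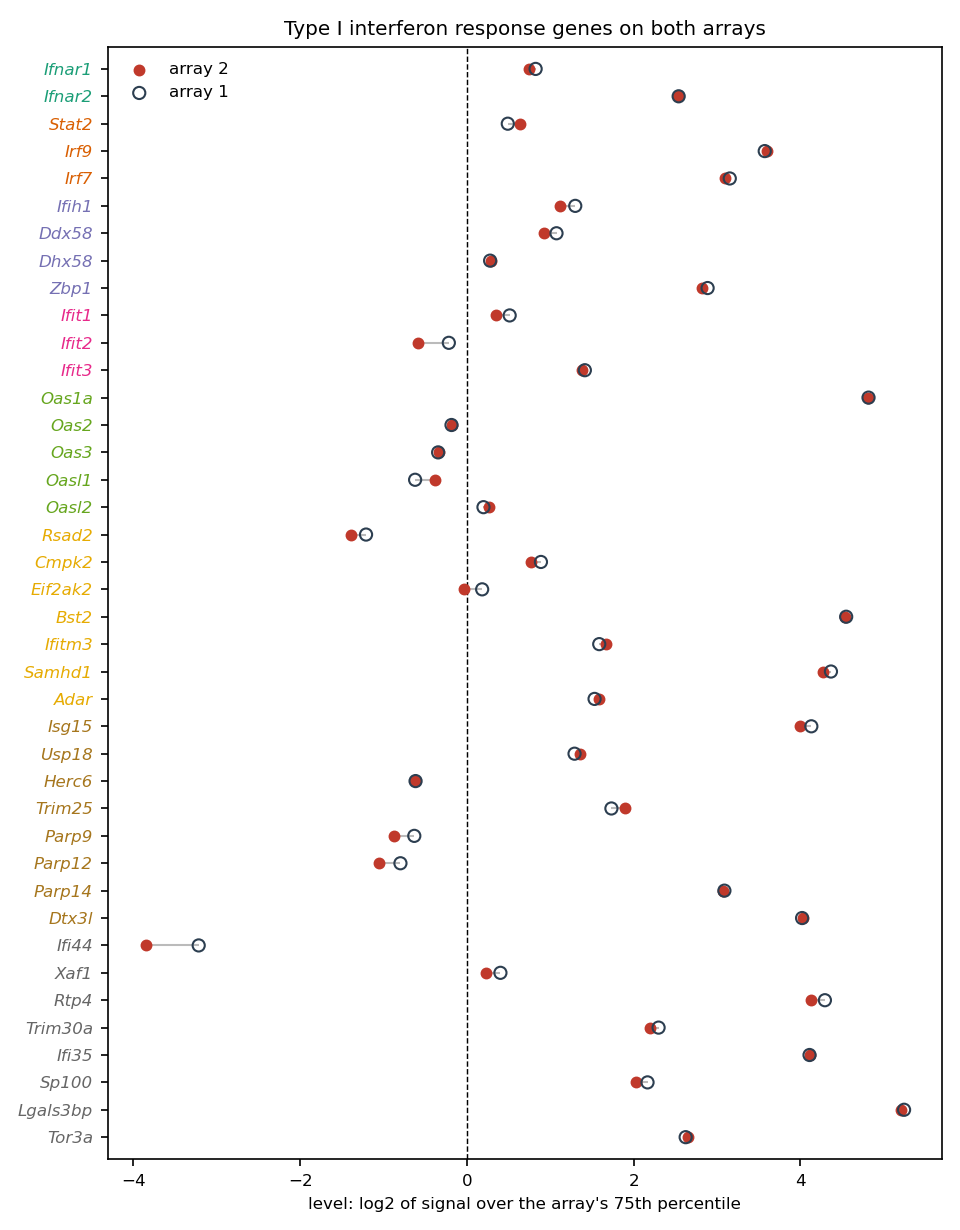
Level of each of the 40 measured members on array 2 (filled) and array 1 (open), in log2 units relative to the 75th percentile of each array (dashed line at 0); names are coloured by role. The 2 points of most members nearly coincide, and those of Ifi44 and Ifit2 lie visibly apart, with array 2 lower.

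Each receptor chain was measured at nearly equal levels on both arrays. Ifnar2, the chain that binds interferon with high affinity, measured 2.54 on array 2 and 2.54 on array 1, a difference of -0.003 ± 0.14. Ifnar1, which carries Tyk2, had 0.74 on array 2 and 0.83 on array 1, a difference of -0.08 ± 0.12. The 3 probes of Ifnar1 were all lower on array 2, by -0.02 to -0.12.

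The transcription factors of the response differed by less than their spot errors. Irf9, the DNA-binding part of ISGF3, measured 3.60 on array 2 and 3.57 on array 1. Irf7, the factor that amplifies interferon production, had 3.10 on array 2 and 3.15 on array 1. Its own gene is a target of ISGF3. Stat2, the ISGF3 subunit specific to interferons of types I and III, had 0.63 on array 2 and 0.49 on array 1, a difference of 0.14 ± 0.15. That mean joins probes of opposite sign. The brighter probe of Stat2 had 2.99 on array 2 and 3.18 on array 1 (-0.19), and the dimmer one -1.72 and -2.20 (0.48). The direction of Stat2 between the arrays is therefore not settled by its probes.

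Of the 4 sensors, 3 were lower on array 2. Ddx58, which encodes RIG-I, a detector of RNA ends that lack a host cap, had 0.92 on array 2 and 1.08 on array 1, a difference of -0.15 ± 0.10. Its 4 probes spanned a 53.4-fold range of signal on array 2 and all were lower there, by -0.12 to -0.18. Ifih1, which encodes MDA5, a detector of long duplex RNA, had 1.12 on array 2 and 1.30 on array 1 (-0.18 ± 0.20). Dhx58, which encodes LGP2, a regulator of both, had 0.29 on array 2 and 0.28 on array 1. Zbp1, a sensor of nucleic acid in the Z conformation that can trigger cell death, had 2.82 on array 2 and 2.89 on array 1. Ddx58 was the sensor with a difference beyond its spot error, which combines 4 probes. None of the 4 probes of Ddx58 alone differed by more than its own spot error, and the largest of their differences was -0.18 ± 0.20. Ifih1, with 1 probe, differed by -0.18 and stayed within its error.

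All 3 IFIT genes, whose products bind foreign RNA and block its translation, were lower on array 2 by amounts that differed between them. Ifit2 measured -0.58 on array 2 and -0.22 on array 1, a difference of -0.37 ± 0.21. Ifit1 had 0.35 on array 2 and 0.51 on array 1, which is -0.17 ± 0.20. Ifit3 had 1.38 on array 2 and 1.42 on array 1, which is -0.03 ± 0.20. Ifit2 and Ifit3 are next to each other in the RefSeq annotation, and each rests on 1 probe. Ifit3 has a near-identical copy, Ifit3b (-0.17), and the array may not tell them apart.

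The OAS genes did not share that direction. Oas1a, Oas2 and Oas3 encode synthetases of the oligoadenylates that switch on RNase L. Oas1a measured 4.81 on array 2 and 4.82 on array 1, Oas2 had -0.18 and -0.18, and Oas3 had -0.33 and -0.34. Each of the 3 differed by 0.01 in size. Oas1a belongs to a cluster of near-identical copies, so its source is uncertain. Oasl1, which in mice restrains the translation of Irf7, had -0.38 on array 2 and -0.62 on array 1, a difference of 0.24 ± 0.15. Both of its probes were higher on array 2, by 0.19 and 0.29. Oasl2, its neighbour in the annotation, had 0.27 on array 2 and 0.20 on array 1 (0.07 ± 0.20). A further probe of Oas2 stayed under the background limit on both arrays.

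Of the 7 measured antiviral effectors, 5 were lower on array 2. Rsad2, which encodes viperin, a maker of a chain-terminating nucleotide, had -1.39 on array 2 and -1.21 on array 1, a difference of -0.18 ± 0.15. Cmpk2, a mitochondrial nucleotide kinase encoded next to Rsad2, had 0.77 on array 2 and 0.89 on array 1 (-0.12 ± 0.20). Eif2ak2, which encodes the kinase PKR that halts translation on duplex RNA, had -0.03 on array 2 and 0.18 on array 1 (-0.21 ± 0.20). Rsad2 and Eif2ak2 were the effectors with differences beyond their spot errors.

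The other effectors were closer between the arrays. Samhd1, an enzyme that depletes the building blocks of DNA, had 4.27 on array 2 and 4.37 on array 1 (-0.10 ± 0.12), and its 3 probes were all lower on array 2. Bst2, which encodes tetherin, had 4.54 on array 2 and 4.55 on array 1. Ifitm3, a membrane protein that blocks viral entry, had 1.67 on array 2 and 1.59 on array 1. Adar, which edits adenosine in duplex RNA, had 1.58 on array 2 and 1.53 on array 1. Ifitm3 and Adar were higher on array 2 by less than their spot errors.

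The ISG15 system attaches a ubiquitin-like protein to others. Isg15 itself measured 3.996 on array 2 and 4.13 on array 1, a difference of -0.14 ± 0.20. Usp18, which removes ISG15 and also blocks Ifnar2 signalling, had 1.36 on array 2 and 1.29 on array 1 (0.07 ± 0.20). Herc6, the main ISG15 ligase of mice, had -0.62 on array 2 and -0.62 on array 1. The modifier, its protease and its ligase thus lay within 1 spot error of no difference. Trim25, a ubiquitin ligase that acts on RIG-I, had 1.90 on array 2 and 1.73 on array 1 (0.16 ± 0.15), with both probes higher on array 2.

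Parp9 and Dtx3l form a complex that modifies histones and viral proteins, and their genes are neighbours. Dtx3l had 4.04 on array 2 and 4.02 on array 1, a difference of 0.01 ± 0.20. Parp9 had -0.87 on array 2 and -0.63 on array 1 (-0.24 ± 0.22), but its bright probe differed by -0.11 and the probe near background by -0.38. Parp14, an ADP-ribosyltransferase that lies on the other side of Dtx3l, had 3.07 on array 2 and 3.09 on array 1. Parp12, a related enzyme encoded elsewhere, had -1.06 on array 2 and -0.80 on array 1 (-0.26 ± 0.21). Parp9 and Parp12 were lower on array 2 by more than their spot errors, and Parp14 and Dtx3l were not. Neither probe of Parp9 alone passed its own spot error (0.20 for the bright one, 0.38 for the other). With the stricter filter, which leaves out the dim probe, Parp9 differed by -0.11.

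Among the remaining 8 members Ifi44 stood farthest from 0. Ifi44, an interferon-induced cytoplasmic protein, measured -3.85 on array 2 and -3.22 on array 1, a difference of -0.64 ± 0.31, or 1.56-fold lower on array 2. It rests on 1 probe whose level on array 2 lay near the detection floor of -4.58, and with normexp background correction its difference was -0.10. Xaf1, whose product favours cell death, had 0.23 on array 2 and 0.40 on array 1 (-0.17 ± 0.15), with both probes lower on array 2.

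Rtp4, a chaperone of membrane receptors, had 4.13 on array 2 and 4.29 on array 1 (-0.17 ± 0.20). Sp100, a component of nuclear bodies, had 2.03 on array 2 and 2.17 on array 1 (-0.14 ± 0.20). Trim30a, a restraint on Toll-like receptor signalling, had 2.20 on array 2 and 2.30 on array 1 (-0.10 ± 0.20). These 3 genes were lower on array 2 by less than their spot errors. Lgals3bp, a secreted glycoprotein that binds galectins, had 5.21 on array 2 and 5.24 on array 1. Ifi35, a partner of Nmi, had 4.12 on array 2 and 4.11 on array 1. Tor3a, a torsin ATPase, had 2.65 on array 2 and 2.62 on array 1. The last 3 nearly coincided on the arrays.

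**Figure D2:**
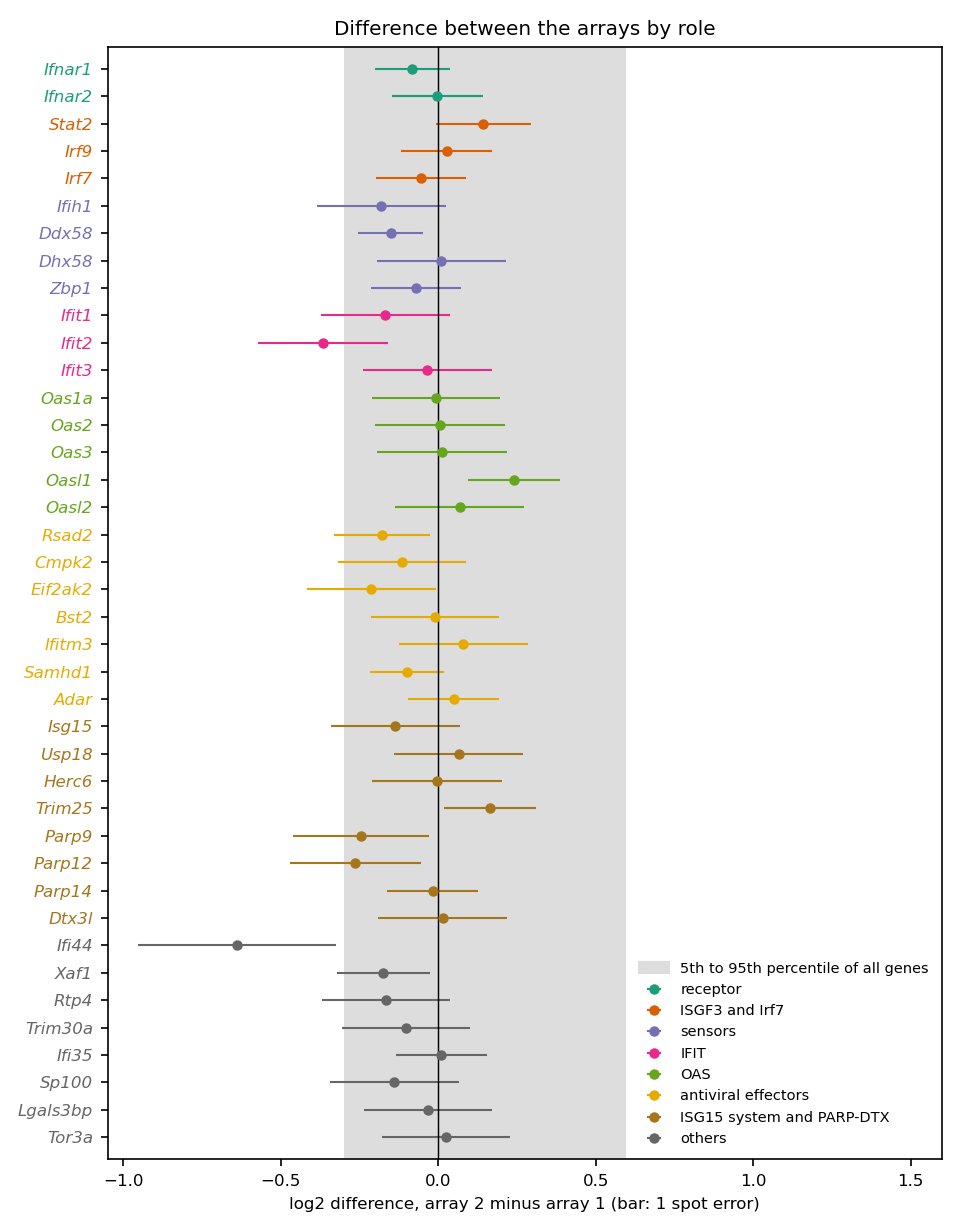
Log2 difference of each measured member, array 2 minus array 1, with its spot error as the bar and its role as the colour; the grey band runs from the 5th to the 95th percentile of all genes measured on both arrays (-0.30 to 0.59). Ifi44 and Ifit2 lie left of the band and no member lies right of it.

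Over the whole set, differences were small and leaned towards lower values on array 2. Of the 40 members, 26 (65.0%) were below 0, where 46.2% of all 13743 genes were. The median of the members was -0.03 and that of all genes 0.01. Ifi44 was the 1 member at least 1.5-fold lower on array 2, where 0.815% of all genes were, and 0 members were 1.5-fold higher, where 5.15% of all genes were. With normexp background correction, 0 members were 1.5-fold lower. Past 0.32 on the log2 scale, 2 members were lower and 0 higher, against 4.13% and 10.6% of all genes. At 2-fold there were 0 members in either direction, against 0.0873% of all genes lower and 1.34% higher. Beyond 1 spot error, 8 members (20.0%) were lower and 2 (5.0%) were higher, against 11.4% and 17.1% of all genes. The 8 were Ddx58, Ifit2, Rsad2, Eif2ak2, Parp9, Parp12, Ifi44 and Xaf1, and the 2 were Oasl1 and Trim25. For Ddx58 and Parp9, no single probe differed by more than its own spot error. No test stands behind this lean.

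RNA of other cells was present beside that of T cells, in amounts that differed between the arrays. The 6 proximal tubule markers were all higher on array 2, with a median of 1.19 and a summed level of 116.9 on array 2 and 58.0 on array 1, in multiples of the 75th percentile. Macrophage and monocyte markers were higher on array 2 in 9 of 9 measured genes, with a median of 0.32 and summed levels of 23.0 on array 2 and 18.2 on array 1. Plasmacytoid dendritic cells are a major source of interferon alpha. Of their 6 markers 5 were measured, with a median of 0.06, 3 of 5 higher on array 2, and summed levels of 105.2 on array 2 and 109.0 on array 1. Siglech had 6.25 on array 2 and 6.39 on array 1 (-0.15), Ccr9 differed by -0.22, Pacsin1 by 0.06, Cox6a2 by 0.34 and Klk1 by 0.55. Klk1 of that list is also made in the kidney tubule, and Cd300c had no matched probe. Siglech rests on 1 of its 2 matched probes, since the other was not well above background on both arrays. Most of the summed level of this list came from Siglech. T cell and Treg markers had a median of 0.02 and summed levels of 574.9 on array 2 and 567.3 on array 1.

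Of the remaining marker lists, summed levels were 119.7 on array 2 and 89.0 on array 1 for the distal nephron (4 of 4 higher), 14.9 and 12.9 for NK and CD8 T cells, with Ncr1 not detected, and 10.3 and 8.05 for neutrophils. They were 6.84 on array 2 and 7.92 on array 1 for B and plasma cells, 2.77 and 2.80 for other dendritic cells and 1.20 and 1.22 for endothelium. Most of the sum came from Umod for the distal nephron, Cd8b1 for NK and CD8 T cells and S100a9 for neutrophils. The same held for Cd79b in the B and plasma cell list and Kap in the proximal tubule list. These sums follow the brightest gene and do not measure how many cells of a type were present. Tubule and macrophage markers were thus higher on array 2, where most interferon members were lower. Macrophages and plasmacytoid dendritic cells are known to express many of the members, and Bst2 is a surface marker of mouse plasmacytoid dendritic cells. The part of these cells in the members' values was not tested.

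The lean did not rest on dim members alone, but the size of the differences did depend on signal. Among the 31 members with a mean level at or above the 75th percentile, 20 (64.5%) were below 0, against 46.8% of all genes of that brightness. Their differences ran from -0.21 to 0.16, and 3 of the 31 were lower by more than 1 spot error, against 6.97% of all such genes, while 1 was higher, against 9.69%. The 9 dimmer members ran from -0.64 to 0.24, with 6 of 9 (66.7%) below 0, against 45.4% of all dimmer genes. Of the 9, 5 were lower by more than 1 spot error, against 17.3% of all dimmer genes, and 1 was higher, against 26.9%.

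**Figure D3:**
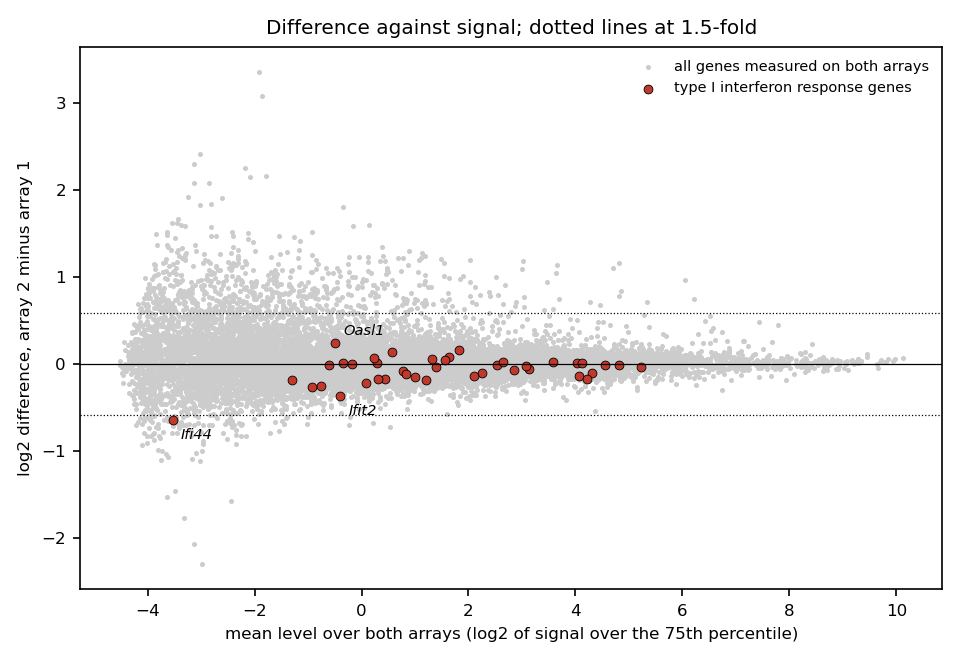
Log2 difference, array 2 minus array 1, against mean level for all genes measured on both arrays (grey) and the 40 members (red); dotted lines mark 1.5-fold. Members spread further from 0 at low signal, as all genes do, and Ifi44 alone crosses the lower dotted line.

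The direction of small differences depends on how the arrays are scaled. The 8 spike-ins, control RNAs added in known amounts, had a median difference of 0.06, and scaling by them lowers every difference by that amount. The set's median was then -0.09, with 34 of 40 members below 0, while 62.1% of all genes were below 0. Across the 12 settings that keep the array order, from background correction to the choice of probe, 23 members were below 0 wherever they were measured, which was in every one except for Ifi44, removed by the stricter filter on dim probes. Oasl1, Oasl2, Ifitm3, Usp18 and Trim25 were above 0 in every one, and the sign of the other 12 members varied. Several settings, among them the one that kept outlier spots, left the members' values nearly unchanged, so a constant sign was likely in advance. The share of all genes with a constant sign was not computed. The median of the OAS genes (0.01) and that of the ISGF3 factors with Irf7 (0.03) turned to -0.04 and -0.03 with spike-in scaling. With no scaling they were -0.02 and -0.003. The ISGF3 and Irf7 median was -0.08 with the brightest probe, and the OAS median was -0.01 when scaled by the median of genes. The median of the IFIT genes (-0.17) and that of the sensors (-0.11) stayed below 0 in all 12. So did those of the receptor, the antiviral effectors, the ISG15 system with PARP-DTX and the remaining members. That of the ISG15 system came as near to 0 as -0.0001, with the brightest probe.

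Where a member had several probes, they ran the same way about as often as those of other genes. Of 16 members with at least 2 probes well above background on both arrays, 11 had probes of 1 sign and 5 had probes of both signs, which is 31.25%, against 39.0% of the 5125 genes with several such probes. The distance between the lowest and the highest probe difference of a member had a median of 0.09, and the distance of 0.67 in Stat2 was the widest. The 5 were Ifnar2, Stat2, Irf9, Parp14 and Ifi35, and apart from Stat2 their probes all lay within 0.1 of 0. Each probe had 1 spot on each array, so no repeated spots were available for the members.

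**Figure D4:**
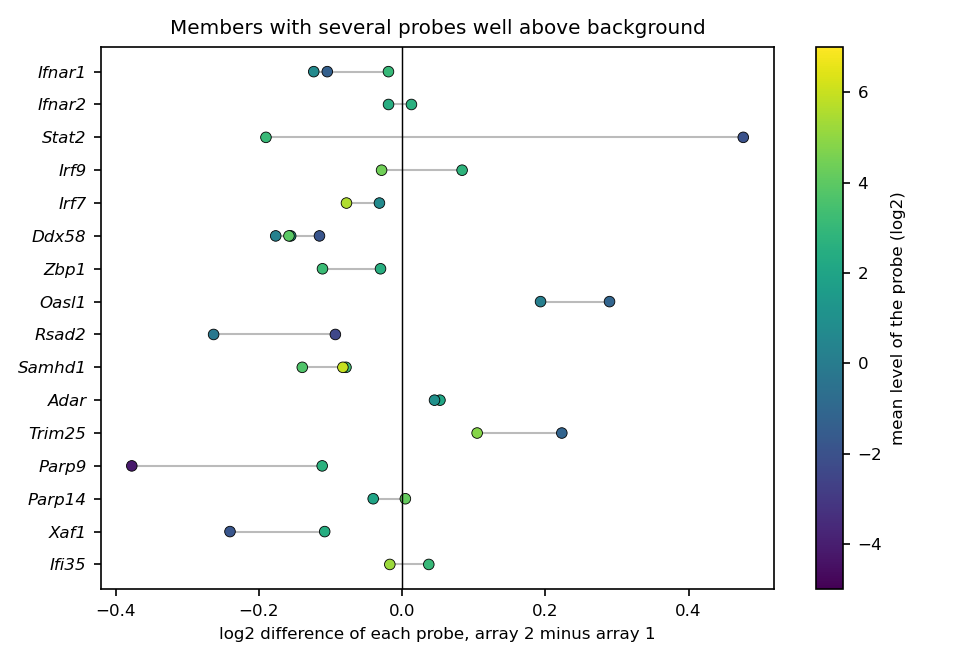
Log2 difference of each probe, array 2 minus array 1, for the 16 members with several probes well above background on both arrays; colour gives the probe's mean level. The 4 probes of Ddx58 lie close together below 0, both probes of Oasl1 lie above 0, and those of Stat2 lie on opposite sides.

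The interferons themselves were nearly undetected in this RNA. Of 20 genes for type I and type III interferons, 17 had a matched probe and 15 of these stayed under the background limit on both arrays, among them Ifnb1, which encodes interferon beta, and Ifna4. Ifna5 was well above background on both arrays, at -4.50 on array 2 and -4.48 on array 1, where the floors were -4.58 and -4.62. Ifnab passed on array 1 only, at -4.33. Both genes thus sat at the limit of detection, and near-identical copies in this family make their source uncertain.

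The kinases and partner factors of the pathway were measured on both arrays. Jak1 measured 5.82 on array 2 and 5.82 on array 1, and Tyk2 had 2.23 and 2.28. Irf1, which interferon gamma induces strongly, had 3.17 on array 2 and 3.32 on array 1 (-0.14 ± 0.14). All 3 thus differed by about 1 spot error or less.

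Of the signalling and feedback list, 12 of 13 genes were measured on both arrays, with a median of 0.02. Of these 12, 5 (41.7%) were below 0, against 46.2% of all genes. Beyond 1 spot error, 2 (16.7%) were lower on array 2 and 1 (8.33%) was higher, against 11.4% and 17.1% of all genes. Socs3, a feedback inhibitor of cytokine receptors, was higher on array 2 (0.23 ± 0.20), Stat3 differed by 0.10, Irf8 by 0.07, Socs1 by 0.07 and Irf2 by 0.03, and the phosphatase gene Ptpn2 was lower (-0.13 ± 0.14). Ifnlr1, the specific chain of the type III receptor, passed on array 2 only. Of the genes through which cells produce interferon, 13 of 14 were measured on both arrays, with a median of -0.01. Sting1, the adaptor of DNA sensing, had 6.01 on array 2 and 6.11 on array 1 (-0.10), Cgas differed by -0.07 and Tbk1 by -0.04. Tlr7, a receptor for single-stranded RNA, was higher on array 2 (0.24 ± 0.16), followed by the adaptor genes Mavs (0.15) and Ticam1 (0.13). Irf3 and Irf5 differed by 0.03 and -0.01.

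Of a further 51 genes known to respond to interferons, 46 were measured on both arrays, with a median of -0.04 and 28 of 46 (60.9%) below 0, against 46.2% of all genes. Beyond 1 spot error, 5 (10.9%) were lower on array 2 and 4 (8.70%) were higher, against 11.4% and 17.1% of all genes. No gene of this list was 1.5-fold higher or lower. Ifi205, a DNA-binding protein of the HIN200 family, was lower on array 2 (-0.43 ± 0.20), as were the helicase gene Ddx60 (-0.27 ± 0.15) and Ifit1bl1 (-0.24 ± 0.20), a relative of Ifit1. Trim14, an adaptor of RIG-I signalling, was higher (0.34 ± 0.14), as were the apolipoprotein genes Apol9b (0.24 ± 0.20) and Apol9a (0.23 ± 0.20), which are close copies.

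The genes that interferon gamma induces most strongly leaned further in the same direction. Of 25 measured genes for GTPases and class I presentation, 20 (80.0%) were below 0, with a median of -0.12, against -0.03 for the type I members. Beyond 1 spot error, 8 of the 25 (32.0%) were lower on array 2 and 0 were higher, against 11.4% and 17.1% of all genes. The chemokine gene Cxcl9 had the lowest difference of this list, -0.69 ± 0.21. The difference between the 2 lists has no test. The ISRE letters occurred in 55.0% of the 20 genes of this list with a window, against 40.6% of the members and 3.99% of all genes. Of the further interferon-stimulated genes, 60.5% of the 43 with a window held them. The letters of a gamma-activated site occurred in 35.0% of the 20 and 6.98% of the 43, against 31.25% of the members and 9.55% of all genes.

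**Figure D5:**
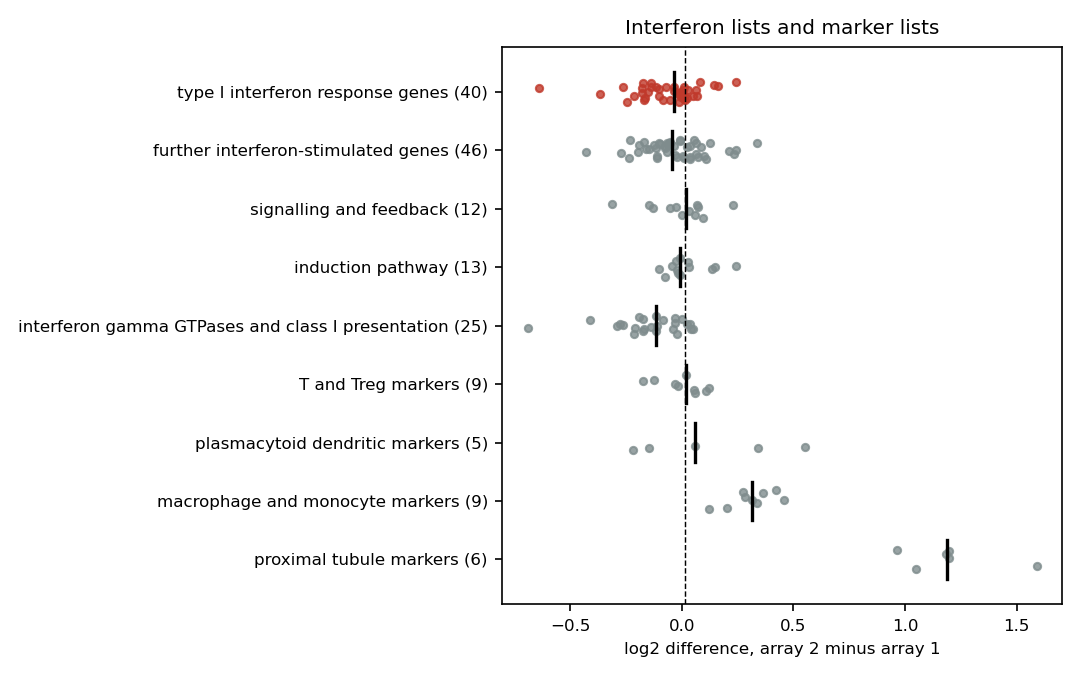
Log2 difference, array 2 minus array 1, of each measured gene in the interferon lists and in the marker lists of 4 cell types; black bars are list medians, the dashed line is the median of all genes and numbers in brackets are genes. The interferon gamma list lies left of the type I list, while macrophage and proximal tubule markers lie right of 0.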

How the data were processed

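Total RNA of sorted kidney Tregs was labelled with Cy3 on 1 Agilent array for each anti-GBM lot. Images were read with Agilent Feature Extraction 10.7.1.1, per the submitters' processing notes and the file headers. The deposited processed signal intensity was background-corrected and detrended within the array, per the file headers, and not normalised between arrays. Other columns were the spot error, the raw median intensities and flags of 0 or 1, all deposited by the authors. The deposited value table gives a linear ratio, of median 0.070 in the column that matches array 2 and 0.069 in the one that matches array 1; no source used here states how the authors made it. Set against the scanner output, it was the processed signal over 1 constant near the array's 75th percentile, not log-transformed and not centred. Among probes whose signal reached 300 (13802 on array 2, 13919 on array 1), the SD of log2(signal/value) was 0.000158 and 0.000162 where the lots disagree, but 0.181 and 0.156 where they match. Direction between lots therefore stays unknown.

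Signals were log2-transformed and the array's 75th percentile over non-control probes was subtracted. Outlier spots (56 on array 2, 75 on array 1) were left out, and 0 spots were saturated. RefSeq accessions gave 32994 of 56605 probes 1 symbol (GRCm38.p6 table, used for names and promoter windows; the arrays name another build), and 23611 had none. Members, lists and the counting rule were chosen with earlier results of these data known. Named genes were all members and, of each further list, up to 3 genes with the largest differences in each direction plus every ligand, kinase, STAT and IRF; Socs1, Ifit3b, Ifnlr1 and the plasmacytoid dendritic markers other than Siglech were named after their values were seen, and a gene that the rule names is not reported here. No p-value is given. By the scanner's quality summary array 2 needed evaluation, because its detection limit for spike-ins fell outside the set range, and array 1 passed. The number of arrays limits the precision. Both arrays shared the slide and the scan, per the file headers.

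Alternatives were normexp (limma 3.58.1, offset 50, on median signals, as no mean signal column exists), 3 other scalings, quantile normalisation, lowess (span 0.3, statsmodels 0.14.6), other filters, probes and fold limits, and the value table. The script was tested on simulated data. Python 3.11.15 was used.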

Additional observations from a re-analysis of the deposited data

How the results depend on the processing

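Of the set's summary values, the median difference (-0.03) stayed below 0 in each setting that keeps the array order and ranged down to -0.0901 with spike-in scaling. With the value table and its columns taken by their labels, which swaps the arrays, it turned to 0.0315, the count below 0 became 14, the count 1.5-fold higher became 1 and the count 1.5-fold lower became 0. Ifi44 then turned to 0.65. With the columns matched to the scanner output, chosen after seeing the data, the median, the count below 0 and the counts 1.5-fold higher and lower were -0.03, 26, 0 and 1. The single member 1.5-fold lower, Ifi44, was lost under normexp (0 members; its difference was -0.10, an offset that compresses dim probes) and under the stricter filter on dim probes, which removes it (0 of 39 members). At 2-fold the count was 0, and past 0.32 on the log2 scale it was 2. Members lower by more than 1 spot error numbered 8, and 3 among the brighter 31, a setting chosen after seeing the data.

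Of the further lists, the signalling and feedback median (0.02) turned to -0.006 when scaled by the median of genes, to -0.0392 with spike-ins, to -0.0134 with no scaling and to -0.0192 with the value table by its labels. The induction median (-0.01) turned to 0.0147 under normexp and to 0.0073 with the value table by its labels. The further interferon-stimulated genes moved to -0.10 with spike-ins and turned to 0.0407 with the value table by its labels, and the interferon gamma list moved to -0.17 and turned to 0.11. The cause was not tested beyond the construction of these settings. Over all genes, 708 were 1.5-fold higher and 112 lower; the counts were 233 and 4 under normexp, 1674 and 994 with no filter and 393 and 18 with the stricter filter. Apart from the label swap, single members moved beyond their spot error in 3 cases: Ifi44 under normexp, Oas2 with no filter (0.45, from a probe not above background) and Stat2 with the brightest probe (-0.19).

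No paired analysis was possible because each lot has 1 array. No array can be left out without losing the comparison. Including members at a bound changed nothing, since all 40 were measured on both arrays. Signal over background limits Ifi44, the dim probe of Parp9 and the interferon genes.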
